A study of Saccharomyces cerevisiae with 18 samples.

Results

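The 2 engineered Saccharomyces cerevisiae strains EPY330 and EPY338 were compared on the NimbleGen expression arrays hybridized with cDNA from the indirect method. These were 6 of the 18 arrays of the study, chosen by the labeling method and strain in the sample labels, with 3 arrays for EPY330 and 3 for EPY338. The study set a labeling protocol based on random primers (direct random) beside the indirect and the double-stranded cDNA (ds-cDNA) protocols, and the same RNA was labeled by all 3 methods, with 6 arrays for each. In the indirect method reverse transcription builds aminoallyl nucleotides into the cDNA, and a fluorescent dye is coupled to them afterwards. The study describes the cDNA of the indirect and ds-cDNA methods as primed with oligo(dT).

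EPY330 and EPY338 were both started from colonies in SD-His-Met-Leu medium, which lacks histidine, methionine and leucine, and both were then kept for 24 h in YPG inducing medium. The alleles and plasmids that separate the strains are not given in the sources used here, so the strains are called by name only. RNA of 3 cultures was pooled for each strain, and the 3 arrays of a strain were separate labelings of that pool. The p-values therefore measure the spread between labelings and arrays and not between cultures, and the small number of arrays limits their precision. In RNA from whole cultures a smaller share of cells that express a gene and less RNA of it per cell cannot be told apart.

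Yeast resists many unrelated toxic compounds through pleiotropic drug resistance, in which the zinc-cluster transcription factors Pdr1 and Pdr3 bind shared elements in the promoters of their targets. The best known targets are ATP-binding cassette (ABC) pumps of the plasma membrane such as Pdr5, Snq2 and Yor1, together with enzymes and transfer proteins that change membrane lipids. Growth on different carbon sources is served by a large family of hexose transporters, the GAL genes of galactose use, and genes of respiration and gluconeogenesis that glucose represses.

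Each array gave 1 log2 intensity for each of 5739 genes, and fold-changes are EPY330/EPY338. Array medians lay between 9.99 and 10.02. The 3 EPY330 arrays correlated with each other between 0.9956 and 0.9958. EPY338 replicate 3 stood somewhat apart from the other EPY338 arrays, with correlations of 0.9915 and 0.9935, and 8 genes on it lay more than 1 log2 unit from the other 2 arrays. The median SD of replicates was 0.0848 in EPY330 and 0.0990 in EPY338 on the log2 scale. The median log2 fold-change of all genes was -0.02.

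With limma, a moderated linear model fitted to all genes, and Benjamini-Hochberg adjustment, 521 genes (9.08%) had an adjusted p under 0.05, which is written below as 95% confidence and as being called. Of these, 257 (4.48%) were higher and 264 (4.60%) lower in EPY330. These 2 shares are the background for the counts of called list members below. At 99% confidence 195 genes (3.40%) were called. In each of the 521 genes all EPY330 arrays lay on one side of all EPY338 arrays, which was also so for 30.2% of all genes. The 2 directions differed in size. Of the 51 genes with a fold-change above 2, 43 were higher (0.749%) and 8 were lower (0.139%), and above 4-fold there were 16 and 1. All 51 were called at 99% confidence and kept their call in every limma alternative that tested them, arrays left out in turn included. The alternative without the dimmest 25% of genes did not test 5 of them (IMA5, RSB1, OSI1, RTA1 and YJR115W). The other calls were small, with a median fold-change of 1.39 over all genes called higher and 0.757 over all called lower, and 219 of the 521 kept the call whichever array was left out.

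**Figure D1:**
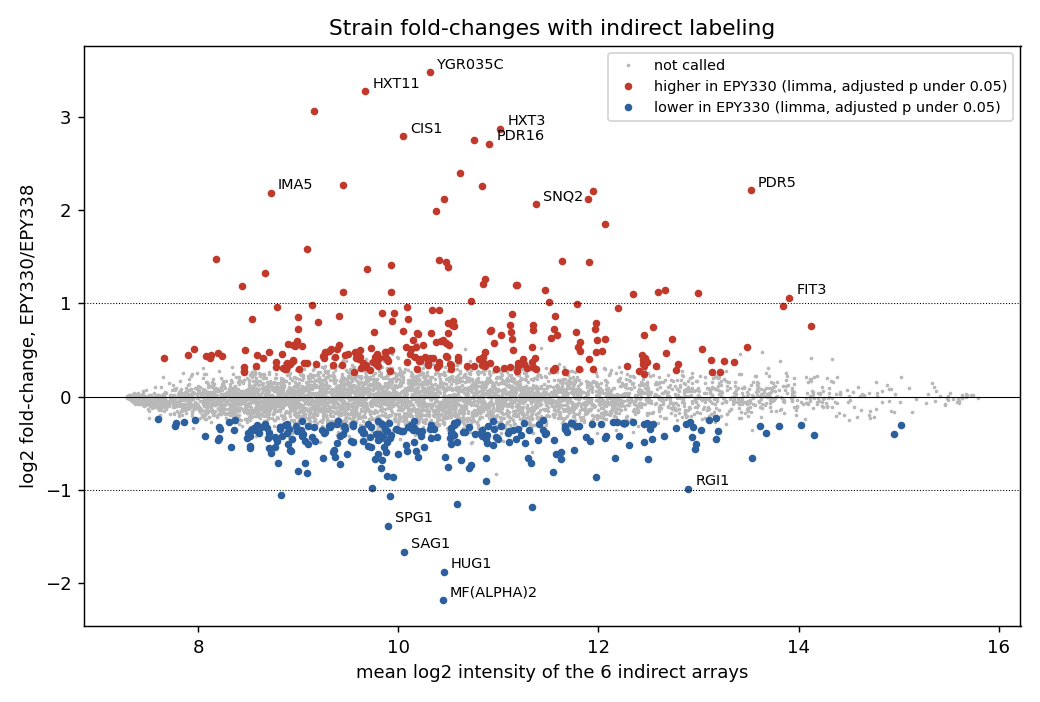
Log2 fold-change (EPY330/EPY338) of 5739 genes against their mean log2 intensity over the 6 indirect arrays, with called genes in red (257 higher in EPY330) and blue (264 lower) and dotted lines at a 2-fold difference. The higher side reaches beyond 3 log2 units (YGR035C, HXT11) and the lower side to -2.18 (MF(ALPHA)2).

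Targets of Pdr1 and Pdr3 held most of the strongest differences between the strains. Of 23 listed targets 20 were higher in EPY330 (87.0%, against 4.48% of all genes), none was lower, and their median log2 fold-change was 1.48, against -0.02 over all genes. The targets reached 11.2-fold, and 11 of the 16 genes above 4-fold were among them. The list was written with earlier results of these data known, so its count is a description. Of the regulators, PDR3, which is itself a target, read 9.54, 9.18 and 9.09 on the EPY330 arrays and 8.28, 8.14 and 8.51 on the EPY338 arrays, a 1.95-fold difference (log2 0.96 ± 0.14, SE, adjusted p = 0.00397). PDR1 read 10.15, 9.86 and 9.97 in EPY330 and 9.30, 9.47 and 9.65 in EPY338 (1.43-fold, adjusted p = 0.0217). Neither regulator's arrays overlapped between the strains, but PDR1 had adjusted p-values over 0.05 without EPY330 replicate 1 or 3 or EPY338 replicate 1 or 2.

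Among the ABC pumps, PDR5, the main exporter of many drugs and a pump of steroids, read 14.77, 14.60 and 14.52 on the EPY330 arrays and 12.54, 12.38 and 12.31 on the EPY338 arrays. It was 4.65-fold higher in EPY330 (log2 2.22 ± 0.09, adjusted p = 2.09e-06). PDR15, its closest relative, read 11.94, 11.83 and 11.68 in EPY330 and 9.55, 9.28 and 9.41 in EPY338 and was 5.29-fold higher (adjusted p = 1.78e-06). SNQ2, which exports quinoline oxide and other mutagens, read 12.48, 12.46 and 12.29 in EPY330 and 10.36, 10.53 and 10.14 in EPY338 (4.19-fold, adjusted p = 9.83e-06). YOR1, the oligomycin pump, read 12.31, 12.21 and 12.34 in EPY330 and 11.42, 11.24 and 11.20 in EPY338 (log2 1.00 ± 0.08, adjusted p = 0.000147). PDR10, another relative of PDR5, differed least of the pumps, with 10.45, 10.61 and 10.59 in EPY330 and 10.22, 10.30 and 10.17 in EPY338 (1.25-fold, adjusted p = 0.0315), and it was the 1 called target that lost its call when a single array was left out (EPY330 replicate 2 or 3, or EPY338 replicate 1 or 2). In the 5 pumps every EPY330 array lay above every EPY338 array.

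Of the targets that act on membrane lipids 5 were higher too. PDR16, a phosphatidylinositol transfer protein, read 12.21, 12.35 and 12.24 on the EPY330 arrays and 9.55, 9.39 and 9.73 on the EPY338 arrays, a 6.56-fold difference (log2 2.71 ± 0.09, adjusted p = 1.27e-06). ICT1, an acyltransferase of lysophosphatidic acid, read 12.97, 13.04 and 13.16 in EPY330 and 10.74, 10.99 and 10.81 in EPY338 (4.63-fold, adjusted p = 1.76e-06). RSB1, which moves long-chain bases out of the cell, read 8.99, 8.98 and 8.80 in EPY330 and 7.46, 7.38 and 7.49 in EPY338 (2.79-fold, adjusted p = 8.11e-06), its EPY338 values lying near the lowest intensities of the arrays. IPT1, which makes the most complex yeast sphingolipid, read 11.17, 11.09 and 11.33 in EPY330 and 9.75, 9.72 and 9.78 in EPY338 (2.73-fold, adjusted p = 1.14e-05). RTA1, a membrane protein of sterol-analog resistance, read 8.96, 9.11 and 9.03 in EPY330 and 7.80, 7.88 and 7.84 in EPY338 (2.28-fold, adjusted p = 1.47e-05). The spread within a strain was small beside all of these differences.

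The gene with the largest fold-change on the arrays was another listed target, YGR035C, a gene of unknown function. Its intensities were 12.11, 12.13 and 11.93 on the EPY330 arrays and 8.53, 8.48 and 8.71 on the EPY338 arrays, a difference of 11.2-fold (log2 3.48 ± 0.09, adjusted p = 3.05e-07). CIS1, an autophagy-related gene also known as YLR346C, read 11.50, 11.40 and 11.43 in EPY330 and 8.59, 8.56 and 8.79 in EPY338 (6.93-fold, adjusted p = 5.63e-07). HXT11 and HXT9, hexose transporters that also take up drugs, read 11.18, 11.33 and 11.41 and 10.71, 10.59 and 10.79 in EPY330, against 7.90, 7.98 and 8.21 and 7.57, 7.71 and 7.61 in EPY338. They were 9.71-fold (adjusted p = 6.34e-07) and 8.38-fold (adjusted p = 3.05e-07) higher, but they are near-identical copies whose cDNA could bind the same probes, so that their separate values are uncertain. The HXT9 values in EPY338 lay near the lowest intensities of the arrays. BDH2, a putative medium-chain alcohol dehydrogenase, read 11.86, 11.98 and 12.05 in EPY330 and 9.62, 9.66 and 9.83 in EPY338 (4.79-fold, adjusted p = 1.27e-06). GRE2, a methylglyoxal reductase also induced by osmotic stress, read 13.03, 12.91 and 12.92 in EPY330 and 11.11, 10.93 and 10.47 in EPY338 (4.34-fold, adjusted p = 6.12e-05), the third EPY338 array lying lowest. The remaining called targets were TPO1, a polyamine exporter (2.71-fold, adjusted p = 1.17e-05), RPN4, the activator of proteasome genes (1.82-fold, adjusted p = 0.000851), and LAF1 (1.79-fold, adjusted p = 0.00335).

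The 3 targets that were not called were YLL056C, PLB1 and SNG1. YLL056C read 8.59, 8.61 and 8.71 in EPY330 and 8.29, 8.36 and 8.59 in EPY338 (1.17-fold, adjusted p = 0.151), without overlap. PLB1, a phospholipase, and SNG1, a membrane protein of drug resistance, read 11.11, 10.87 and 10.97 and 8.50, 8.36 and 8.43 in EPY330, against 10.89, 10.93 and 10.64 and 8.41, 8.36 and 8.56 in EPY338, with overlap in both. The count of targets called higher was 19 to 20 with any 1 array left out and 17 by the methods' t-test, an equal-variance test of each gene alone that called 2.75% of all genes.

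**Figure D2:**
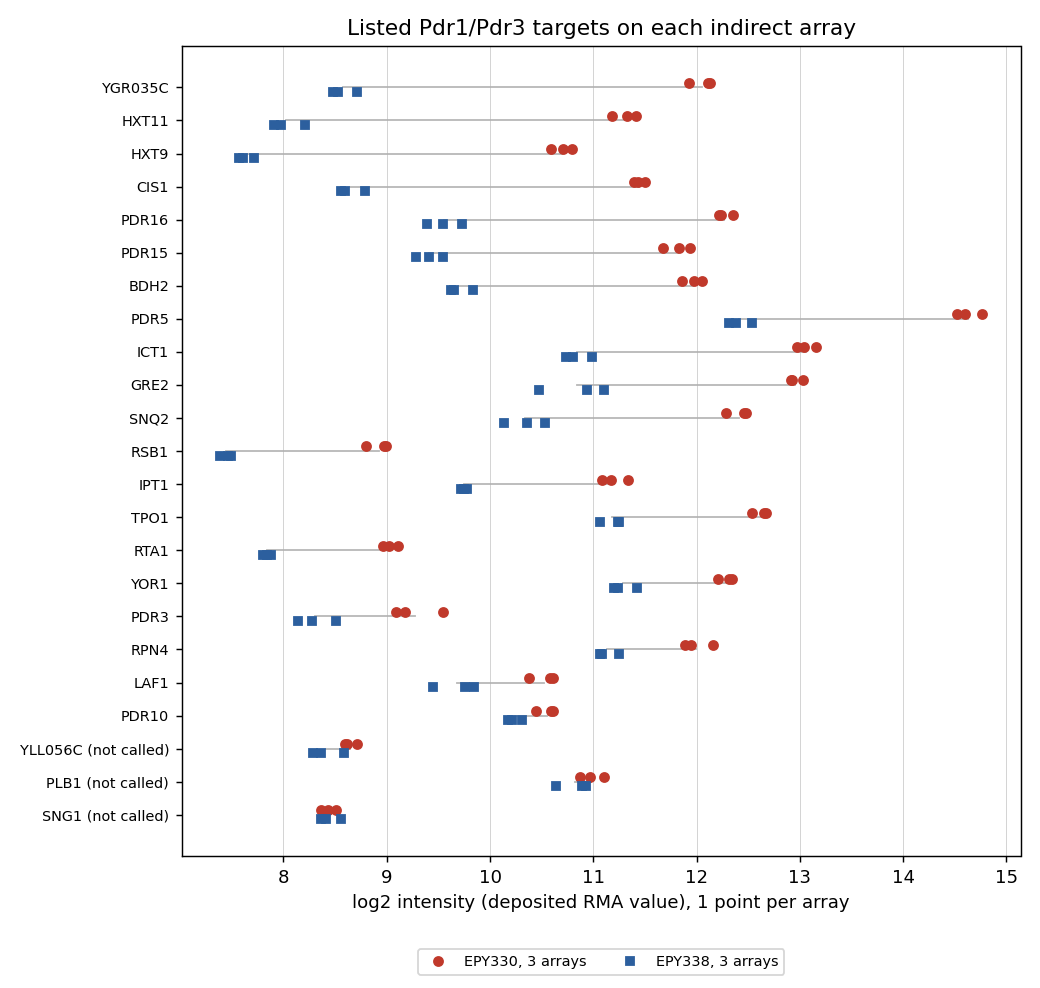
Log2 intensity of the 23 listed Pdr1/Pdr3 targets on each of the 3 EPY330 arrays (red circles) and 3 EPY338 arrays (blue squares), 1 point per array, with a grey line joining the strain means. The strains stand apart in the upper 20 rows and by up to 3.48 log2 units, and they overlap in PLB1 and SNG1.

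Most other drug and weak-acid pumps did not pass the test. Of 21 measured, 3 were higher (14.3%) and 1 lower (4.76%) in EPY330, against 4.48% and 4.60% of all genes. The median log2 fold-change was -0.01. TPO4, a polyamine exporter, read 12.35, 12.24 and 12.52 in EPY330 and 11.00, 10.85 and 10.89 in EPY338 (2.74-fold, adjusted p = 2.01e-05). PDR12, the ABC pump of weak organic acids, read 11.99, 11.59 and 11.73 in EPY330 and 10.73, 10.53 and 10.48 in EPY338 (2.29-fold, adjusted p = 0.000393). AQR1, an exporter of short-chain acids and amino acids, was 1.39-fold higher (adjusted p = 0.0245) and lost its call without any 1 array other than EPY330 replicate 1. HOL1, a transporter of cations and polyamines, was 0.746-fold (adjusted p = 0.0104). TPO4, PDR12 and HOL1 kept their call whichever array was left out.

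Genes of redox defense differed little, with 4 of 24 higher (16.7%), 1 lower (4.17%) and a median of 0.03. The list holds targets of the oxidative stress factor Yap1 and also other genes. Among these are YAP1 itself and CTT1, which is listed with the general stress genes too. OYE3, an NADPH oxidoreductase, was 1.79-fold (adjusted p = 0.00228), the catalase CTT1 1.40-fold (adjusted p = 0.00703), the glutathione peroxidase GPX2 1.40-fold (adjusted p = 0.0332) and GSH1, the first enzyme of glutathione synthesis, 1.34-fold (adjusted p = 0.00505). Glutathione reductase, GLR1, was lower at 0.697-fold (adjusted p = 0.00346). YAP1 itself was 1.21-fold (adjusted p = 0.0629), and the abundant peroxiredoxin TSA1 1.03-fold (adjusted p = 0.742). Of the 5 called genes only GPX2 lost its call with 1 array left out (EPY330 replicate 2, or EPY338 replicate 2 or 3). Of 7 genes of the AAD family of aryl-alcohol dehydrogenases none was called by limma or by the methods' t-test, with 2 higher and 1 lower at an unadjusted p under 0.05, which 10.9% of all genes passed in the higher and 14.5% in the lower direction. With the replicate block the same limma test called 2 AAD genes higher and 1 lower, and 2 genes of the redox list lower. No proteasome subunit of 32 was called by limma, although RPN4 was higher. A fold-change above 1 was found in 28 of the 32, and their median log2 fold-change was 0.10, against -0.02 over all genes. In 14 subunits every EPY330 array lay above every EPY338 array, and in 1 below. Of all genes, 30.2% were apart in this way in either direction. At an unadjusted p under 0.05 limma gave 5 of the 32, all higher, and the methods' t-test called 1. The log2 fold-changes of the 32 lay between -0.12 and 0.24.

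Hexose transporters held some of the largest differences beside members that were not called. Of 15 measured, 5 were higher (33.3%) and 2 lower (13.3%), against 4.48% and 4.60% of all genes. The 5 that were higher kept their call whichever array was left out. HXT3, a low-affinity glucose transporter, read 12.53, 12.34 and 12.51 on the EPY330 arrays and 9.65, 9.38 and 9.71 on the EPY338 arrays, a 7.34-fold difference (log2 2.88 ± 0.10, adjusted p = 1.27e-06). HXT4, a high-affinity transporter, read 10.72, 10.67 and 10.35 in EPY330 and 8.28, 8.29 and 8.37 in EPY338 (4.82-fold, adjusted p = 3.97e-06). HXT8 was weakly higher at 7.97, 7.82 and 7.81, against 7.44, 7.43 and 7.48 in EPY338 (1.33-fold, adjusted p = 0.00798). Its EPY338 values lay near the lowest intensities of the arrays. HXT5, a transporter of slow growth, and GAL2, the galactose permease, were 0.801-fold (adjusted p = 0.0474) and 0.763-fold (adjusted p = 0.0121). HXT1 and HXT13 read between 7.31 and 7.46 on all 6 arrays, close to the lowest intensities, and were not called. HXT2 and HXT7 were 1.24-fold (adjusted p = 0.242) and 1.23-fold (adjusted p = 0.132), and HXT7 shares nearly all of its sequence with HXT6. With the replicate number as a block both were called (adjusted p = 0.0365 and 0.0288).

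MIG2, a repressor that acts with Mig1 on glucose-repressed genes, was the 1 higher gene of 15 in glucose sensing and repression. It read 12.14, 12.07 and 12.20 on the EPY330 arrays and 9.21, 9.35 and 9.59 on the EPY338 arrays, a 6.76-fold difference (log2 2.76 ± 0.10, adjusted p = 1.27e-06). MIG1 was 0.833-fold (adjusted p = 0.366). REG2, a phosphatase subunit, was 0.763-fold (adjusted p = 0.0441) and the hexokinase HXK1 0.809-fold (adjusted p = 0.0374). Neither call held without EPY330 replicate 1 or 2, or without EPY338 replicate 1 or 3. With the replicate block a second gene of the group was called higher.

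Of 12 measured genes of the galactose regulon, 5 were lower in EPY330 by small amounts, none was higher, 7 were not called, and the median was -0.22. GAL7 and GAL1, enzymes of the Leloir pathway, read 14.02, 13.95 and 13.88 and 14.94, 14.93 and 14.72 in EPY330, against 14.41, 14.37 and 14.30 and 15.19, 15.12 and 15.20 in EPY338 (0.752-fold, adjusted p = 0.00877, and 0.809-fold, adjusted p = 0.0469). PGM2, phosphoglucomutase, was 0.679-fold (adjusted p = 0.00140) and GCY1, a glycerol dehydrogenase, 0.712-fold (adjusted p = 0.00389). GAL10 was 0.842-fold (adjusted p = 0.0928) and the repressor GAL80 0.878-fold (adjusted p = 0.0911). GAL2, GAL7, GCY1 and PGM2 kept their call with any 1 array left out, and GAL1 did not.

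**Figure D3:**
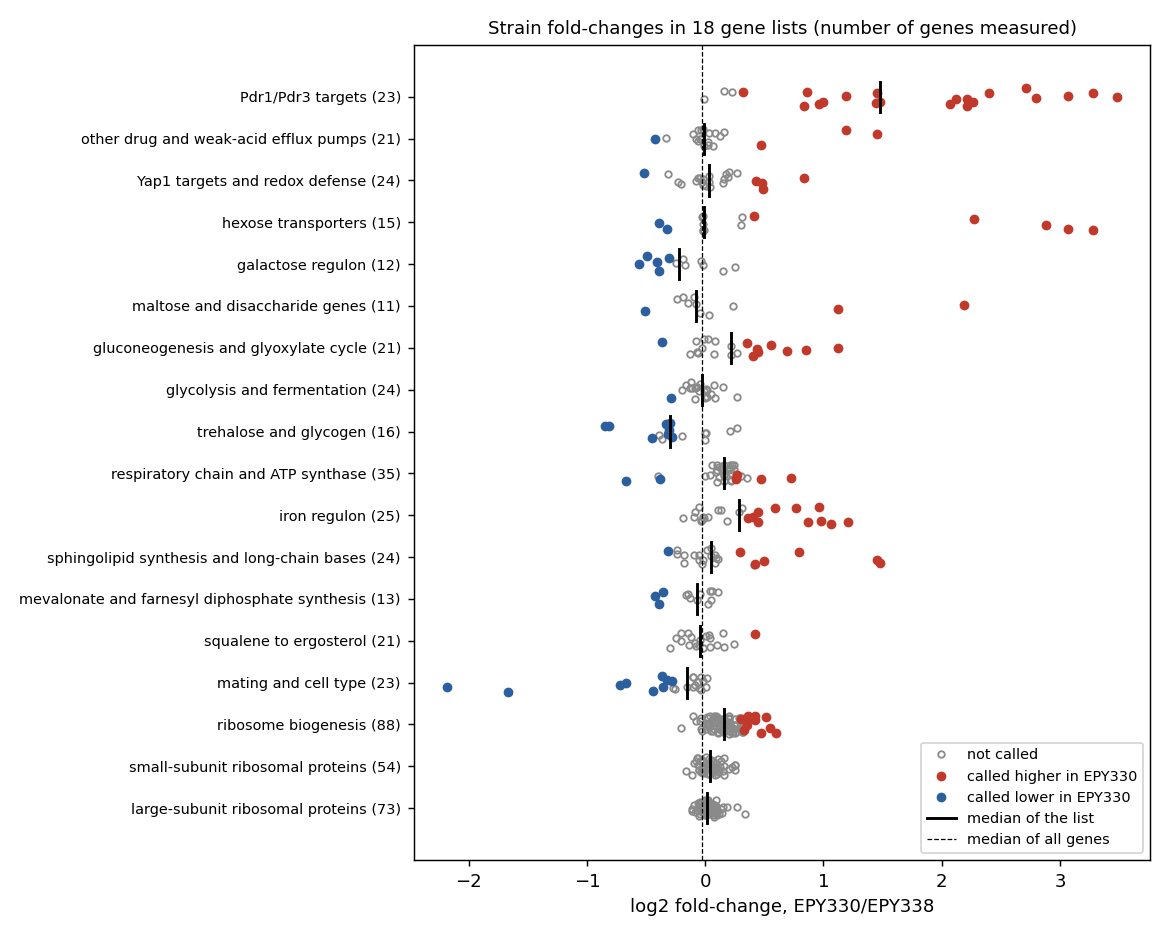
Log2 fold-change (EPY330/EPY338) of each measured gene in 18 lists, 1 point per gene, filled where called at 95% confidence, with the list median as a black bar and the median of all genes as a dashed line. Pdr1/Pdr3 targets and a few hexose transporters and disaccharide genes reach beyond 2 log2 units, while the ribosomal protein lists hold no called gene.

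A few genes for disaccharide use also differed. IMA5, an isomaltase, read 9.90, 9.89 and 9.68 on the EPY330 arrays and 7.57, 7.52 and 7.80 on the EPY338 arrays, a 4.56-fold difference (adjusted p = 3.89e-06). IMA2 and IMA3, isomaltases so alike that their probes could be shared, were 2.18-fold (adjusted p = 0.000114) and 2.21-fold (adjusted p = 0.000143). MAL11, the maltose transporter, was lower at 0.703-fold (adjusted p = 0.0109), and the other 8 of the 11 listed genes measured were not called.

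Some genes used for growth without sugar were higher in EPY330. Of 21 genes of gluconeogenesis, the glyoxylate cycle and the use of fatty acids and organic acids, 8 were higher and 1 lower, with a median of 0.22. MLS1, malate synthase, read 10.36, 10.51 and 10.59 in EPY330 and 9.32, 9.38 and 9.39 in EPY338 (2.18-fold, adjusted p = 5.23e-05). PCK1, which commits oxaloacetate to glucose synthesis, read 12.14, 12.12 and 12.10 in EPY330 and 11.48, 11.36 and 11.44 in EPY338 (1.61-fold, adjusted p = 0.000336), and ICL1, isocitrate lyase, read 10.77, 10.73 and 10.85 in EPY330 and 10.08, 10.23 and 10.38 in EPY338 (1.47-fold, adjusted p = 0.00626). SFC1, the succinate-fumarate carrier of mitochondria, was 1.81-fold (adjusted p = 0.000167), and FBP1 and the lactate permease JEN1 were 1.35-fold (adjusted p = 0.00514) and 1.33-fold (adjusted p = 0.00545). These 6 genes kept their call with any 1 array left out. POT1, the thiolase of peroxisomes, was lower at 0.776-fold (adjusted p = 0.0277), a call lost without EPY330 replicate 1, 2 or 3 and without EPY338 replicate 2. Glycolysis and fermentation showed 1 call among 24 genes, GPD1 of glycerol synthesis (0.819-fold, adjusted p = 0.0282), and of the 6 fits without 1 array only the one without EPY338 replicate 3 called it.

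Most respiratory genes did not pass the test. Of 35 measured, 4 were higher (11.4%) and 2 lower (5.71%), against 4.48% and 4.60% of all genes. A fold-change above 1 was found in 31 of the 35, and the median log2 fold-change was 0.16, against -0.02 over all genes. At an unadjusted p under 0.05 limma gave 19 of the 35 as higher and 3 as lower, which 10.9% and 14.5% of all genes passed. CYC1, the main cytochrome c, read 12.39, 12.31 and 12.28 in EPY330 and 11.58, 11.64 and 11.58 in EPY338 (1.65-fold, adjusted p = 0.000239), and NDE1, an external NADH dehydrogenase, was 1.38-fold (adjusted p = 0.0107). ATP5 and COX6 were also called, at 1.20-fold (adjusted p = 0.0463) and 1.20-fold (adjusted p = 0.0384). The hypoxic subunit COX5B read 11.29, 11.38 and 11.18 in EPY330 and 11.99, 11.94 and 11.95 in EPY338 (0.627-fold, adjusted p = 0.000806), and CYC7, the hypoxic cytochrome c, was 0.766-fold (adjusted p = 0.0373). ROX1, the heme-dependent repressor of hypoxic genes, read 11.76, 11.74 and 11.68 in EPY330 and 10.96, 10.93 and 10.98 in EPY338 (1.71-fold, adjusted p = 0.000127). ANB1, a hypoxic copy of translation factor eIF5A whose relative HYP2 could share its probes, was 0.609-fold (adjusted p = 0.000371). The calls of ATP5 and COX6 were lost without any 1 of the EPY330 arrays, that of COX6 also with the replicate block (adjusted p = 0.0519), and that of CYC7 without EPY330 replicate 2 or 3 or EPY338 replicate 1 or 2. Among the called genes, the aerobic genes CYC1 and NDE1 were thus higher, and the hypoxic genes COX5B, CYC7 and ANB1 lower, in EPY330. Other genes of these kinds were not called, COX5A among them. The size of the ANB1 decrease depended on the labeling method. Its log2 fold-change with indirect minus that with ds-cDNA labeling was -0.62, so the decrease was smaller with ds-cDNA labeling. ANB1 was also too dim to be tested in the alternative without the dimmest genes. Of 16 measured genes of sterol uptake and anaerobic growth, ROX1 was higher and 2 were lower (12.5%, against 4.60% of all genes). The other 13 were not called, among them HEM13, AAC3, TIR1 and DAN1. In the TCA cycle 3 of 17 genes were higher (17.6%, against 4.48% of all genes). These were IDH2 (1.30-fold, adjusted p = 0.0129), IDH1 (1.28-fold, adjusted p = 0.0216) and FUM1 (1.19-fold, adjusted p = 0.0358, and 0.0535 with the replicate block). That count was 0 to 2 with 1 array left out, and it was 0 without EPY330 replicate 1, EPY330 replicate 3 or EPY338 replicate 2.

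Of 16 measured genes of the storage carbohydrates trehalose and glycogen, 8 were lower in EPY330, none was higher and 8 were not called, with a median log2 fold-change of -0.30. GSY1, glycogen synthase, read 9.56, 9.30 and 9.52 on the EPY330 arrays and 10.40, 10.37 and 10.16 on the EPY338 arrays, a fold-change of 0.555 (adjusted p = 0.00113). GLC3, the glycogen branching enzyme, read 11.27, 11.05 and 11.09 in EPY330 and 11.98, 12.10 and 11.77 in EPY338 (0.569-fold, adjusted p = 0.00205). GDB1, the debranching enzyme, and GLG1, a glycogen primer, were 0.732-fold (adjusted p = 0.0191) and 0.794-fold (adjusted p = 0.0231), and GPH1, glycogen phosphorylase, was 0.777-fold (adjusted p = 0.0974, and 0.0416 with the replicate block). TSL1 and TPS1 of trehalose synthesis were 0.805-fold (adjusted p = 0.0393) and 0.826-fold (adjusted p = 0.0369). GSY1 and GLC3 kept their call whichever array was left out. The count fell to 2 without EPY330 replicate 2 or 3, was 3, 4 and 5 without EPY338 replicate 2, EPY338 replicate 1 and EPY330 replicate 1, and was 6 without EPY338 replicate 3. The methods' t-test called none of them.

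General stress genes of Msn2 and Msn4 overlapped this group, since 3 of their 7 lower members, TSL1, GSY2 and TPS1, were also on the list above. Of 20 measured, 3 were higher, YGP1 (1.68-fold, adjusted p = 0.00384), CTT1 and HSP12 (1.31-fold, adjusted p = 0.0154), and 7 were lower, among them PGM2, SOL4 of the pentose phosphate pathway (0.712-fold, adjusted p = 0.00282) and the nicotinamidase PNC1 (0.739-fold, adjusted p = 0.0174). The lower count was 2 to 4 with 1 array left out, and 2 without EPY330 replicate 3. Of 21 cytosolic chaperones only FES1, a nucleotide exchange factor of Hsp70, was called by limma (1.22-fold, adjusted p = 0.0249), and its call was lost without any 1 of the EPY330 arrays or EPY338 replicate 2. Among 12 genes of the unfolded protein response, MPD1 and DER1 were lower (0.685-fold, adjusted p = 0.0101, and 0.739-fold, adjusted p = 0.0292). A fold-change below 1 was found in 11 of the 12, with a median log2 fold-change of -0.19. At an unadjusted p under 0.05 limma gave 7 of the 12 as lower, a limit that 14.5% of all genes passed in that direction. MPD1 kept its call with any 1 array left out, and DER1 did not. With the replicate number as a block 5 of these 12 were lower. KAR2, the main chaperone of the endoplasmic reticulum, was 0.893-fold (adjusted p = 0.170) and HAC1 0.950-fold (adjusted p = 0.614).

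Of 25 listed genes of the iron regulon, 11 were higher in EPY330, none was lower, 14 were not called, and the median was 0.28. The list holds genes of iron uptake, but also the regulators AFT1 and AFT2 and genes outside uptake such as HMX1. TIS11, an mRNA-binding protein of iron starvation also known as CTH2, read 11.35, 11.52 and 11.47 on the EPY330 arrays and 10.25, 10.20 and 10.27 on the EPY338 arrays, a 2.30-fold difference (adjusted p = 1.67e-05). FIT3 and FIT2, cell wall proteins that retain siderophores, read 14.42, 14.46 and 14.44 and 14.34, 14.34 and 14.31 in EPY330, against 13.34, 13.34 and 13.45 and 13.43, 13.42 and 13.21 in EPY338 (2.09-fold, adjusted p = 2.00e-05, and 1.97-fold, adjusted p = 0.000137). The siderophore transporter ARN2 was 1.95-fold (adjusted p = 0.000919), and the reductase FRE1 and the multicopper oxidase FET3 were 1.70-fold (adjusted p = 0.00626) and 1.32-fold (adjusted p = 0.00998). HMX1, heme oxygenase, was 1.51-fold (adjusted p = 0.0107). FIT1, at 7.69, 7.61 and 7.69 in EPY330 and 7.63, 7.65 and 7.85 in EPY338, lay near the lowest intensities, and the iron permease FTR1 was 1.08-fold (adjusted p = 0.471). The 11 became 10 to 12 with 1 array left out, and the methods' t-test called 3. YAP5, the factor that answers iron excess, was 2.18-fold higher (adjusted p = 8.61e-05).

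In other nutrient groups most genes were not called, though the share called higher was above that of all genes in several. In the phosphate regulon 4 of 19 genes were higher (21.1%, against 4.48% of all genes) and 1 lower (5.26%, against 4.60%). PHO84, the high-affinity transporter, was 1.53-fold (adjusted p = 0.00410) and the acid phosphatase PHO5 1.44-fold (adjusted p = 0.00811), while PHO3, a neighbouring phosphatase of similar sequence, read 8.68, 8.65 and 8.81 in EPY330 and 9.10, 9.50 and 9.68 in EPY338 (0.608-fold, adjusted p = 0.0158). Of these, PHO84 and PHO5 kept their call with any 1 array left out. VTC3 and VTC4 of polyphosphate synthesis were 1.33-fold (adjusted p = 0.0369) and 1.23-fold (adjusted p = 0.0270). Among 27 genes of sulfate assimilation and methionine 5 were higher (18.5%, against 4.48% of all genes). They were led by MET14, the kinase of adenylylsulfate (1.61-fold, adjusted p = 0.00335), and MET17 (1.39-fold, adjusted p = 0.00626). MET14 and MET17 kept the call with any 1 array left out. MET2, MUP1 and SAM1 were between 1.25-fold and 1.33-fold higher, and the count was 2 without any 1 of EPY330 replicates 1, 2 and 3 and EPY338 replicate 1. ASN1, asparagine synthetase, was the 1 call of 35 amino acid genes under Gcn4 (1.54-fold, adjusted p = 0.00384). Of 22 genes listed as amino acid permeases 4 were higher (18.2%), MUP1 among them, and none was lower. The higher count was 2 to 3 with 1 array left out. STP4, a zinc-finger protein listed with the amino acid permeases, was 2.03-fold (adjusted p = 0.00119), and the permeases AGP1 and BAP3 were 1.44-fold (adjusted p = 0.0174) and 1.34-fold (adjusted p = 0.0232). Glutamine synthetase, GLN1, was 1.36-fold (adjusted p = 0.00384). ASN1, STP4 and GLN1 kept their call with any 1 array left out, while AGP1 and BAP3 did not. The marker gene LEU2 was 1.08-fold (adjusted p = 0.569).

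Sphingolipid genes were higher in 6 of 24 cases and lower in 1, but the list's median, 0.05, lay near that of all genes. Besides RSB1 and IPT1, which are also Pdr1/Pdr3 targets, SUR1, which adds mannose to inositolphosphoceramide, read 11.06, 11.04 and 10.58 in EPY330 and 10.19, 10.12 and 10.00 in EPY338 (1.73-fold, adjusted p = 0.00776), and SUR2, the hydroxylase of long-chain bases, was 1.41-fold (adjusted p = 0.0171). The ceramide synthase LAC1 was 1.34-fold (adjusted p = 0.00698) and LIP1, a subunit of the same enzyme, 0.802-fold (adjusted p = 0.0324). RSB1, IPT1, SUR1 and LAC1 kept their call with any 1 array left out. PDR16 was the 1 call of 6 phosphatidylinositol transfer proteins.

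The isoprenoid and sterol pathway showed small differences. Of 13 genes from the mevalonate pathway to farnesyl diphosphate and its branches, 3 were lower, HMG2, the minor HMG-CoA reductase (0.746-fold, adjusted p = 0.0271), COQ1 of ubiquinone synthesis (0.761-fold, adjusted p = 0.0472) and DPP1, a phosphatase of diacylglycerol pyrophosphate (0.783-fold, adjusted p = 0.0498). None of these calls held with every array left out in turn, and no gene of the 3 was called without EPY338 replicate 1. The count was 1 after median centring and 1 after quantile normalization of the 6 arrays, with the calls of COQ1 and DPP1 lost in both. HMG1 and ERG20, whose product makes farnesyl diphosphate, were 0.902-fold (adjusted p = 0.254) and 0.893-fold (adjusted p = 0.153). ERG9, squalene synthase, which draws farnesyl diphosphate into sterols, read 10.13, 10.09 and 10.03 in EPY330 and 9.71, 9.59 and 9.68 in EPY338 (1.34-fold, adjusted p = 0.00620) and was the 1 call among 21 genes from squalene to ergosterol. ERG1 was 0.869-fold (adjusted p = 0.0811), ERG11 1.01-fold (adjusted p = 0.950) and the sterol regulator UPC2 0.844-fold (adjusted p = 0.0811). SUT1, a regulator of sterol uptake, read 9.35, 9.40 and 9.47 in EPY330 and 9.63, 10.11 and 9.93 in EPY338 (0.717-fold, adjusted p = 0.0384), and the mannoprotein TIR2 was 0.701-fold (adjusted p = 0.00351). OLE1, the fatty acid desaturase, was 1.44-fold (adjusted p = 0.00355), and the elongase ELO2 and the synthase FAS2 were 0.761-fold (adjusted p = 0.0121) and 0.804-fold (adjusted p = 0.0463). Of these, ERG9, TIR2 and OLE1 kept their call whichever array was left out.

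Of the 8 genes lower by more than 2-fold, MF(ALPHA)2 and SAG1 are genes of mating. Of 23 genes of mating and cell type 9 were lower in EPY330 and none was higher, with a median of -0.16. MF(ALPHA)2, a minor gene for the pheromone of alpha cells, read 9.35, 9.30 and 9.41 on the EPY330 arrays and 11.40, 11.55 and 11.65 on the EPY338 arrays, a fold-change of 0.220 (log2 -2.18 ± 0.08, adjusted p = 1.27e-06). MF(ALPHA)1, the major gene, read 12.18, 12.15 and 12.16 in EPY330 and 12.78, 12.67 and 13.05 in EPY338 (0.629-fold, adjusted p = 0.00470), and the 2 genes are similar enough that their probes could share cDNA. SAG1, the agglutinin of alpha cells, read 9.22, 9.15 and 9.31 in EPY330 and 11.01, 10.84 and 10.81 in EPY338 (0.315-fold, adjusted p = 6.04e-06). AGA1, the anchor of the agglutinin of a cells, was 0.607-fold (adjusted p = 0.00187), and FUS1 of cell fusion 0.735-fold (adjusted p = 0.0107). In both strains the a-cell genes STE2 and MFA1 lay near the lowest intensities, between 7.52 and 7.71, and were not called, while MF(ALPHA)1 was above 12 on every array. The count of 9 became 5 to 7 with 1 array left out, was 5 without EPY330 replicate 2 or EPY338 replicate 2, and was 3 by the methods' t-test.

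HUG1, an inhibitor of ribonucleotide reductase induced by DNA damage, was the second lowest gene. It read 9.42, 9.53 and 9.60 on the EPY330 arrays and 11.30, 11.36 and 11.54 on the EPY338 arrays, a fold-change of 0.271 (log2 -1.88 ± 0.08, adjusted p = 4.02e-06). Other genes of that response moved less or the other way: the kinase DUN1 was 0.783-fold (adjusted p = 0.0274), RNR2 0.818-fold (adjusted p = 0.0352) and RNR1 1.39-fold (adjusted p = 0.0179), and RNR3, the subunit most induced by damage, was 0.896-fold (adjusted p = 0.230). HUG1 alone of the 13 genes measured kept its call with any 1 array left out.

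SPG1, a gene of survival in stationary phase, read 9.16, 9.25 and 9.21 in EPY330 and 10.41, 10.62 and 10.74 in EPY338 (0.383-fold, adjusted p = 3.88e-05). RTC3, a protein with a domain of ribosome maturation factors, read 9.95, 9.92 and 10.16 in EPY330 and 11.12, 11.11 and 11.25 in EPY338 (0.451-fold, adjusted p = 8.76e-05), and UIP4, a protein of the nuclear envelope, 9.41, 9.25 and 9.48 in EPY330 and 10.51, 10.44 and 10.39 in EPY338 (0.477-fold, adjusted p = 8.76e-05). PGU1, an endopolygalacturonase, read 10.78, 10.77 and 10.66 in EPY330 and 12.07, 12.05 and 11.66 in EPY338 (0.439-fold, adjusted p = 0.000399). In all 4 the strains were apart by more than the spread of their arrays. RGI1, a gene of respiratory growth, CRF1, a corepressor of ribosomal protein genes, and WSC4, a sensor of the cell wall, were 0.503-fold (adjusted p = 0.000103), 0.507-fold (adjusted p = 0.000569) and 0.532-fold (adjusted p = 0.000393). DOG2, a phosphatase of 2-deoxyglucose phosphate, was 0.549-fold (adjusted p = 0.00132), and MRK1, a kinase of the GSK-3 family, 0.565-fold (adjusted p = 0.000155). YJR115W and YMR206W, both uncharacterized, were 0.481-fold (adjusted p = 0.00626) and 0.548-fold (adjusted p = 0.00171), and YJR115W read 9.02, 9.36 and 9.70 in EPY338, the widest spread of the 15 genes lowest in EPY330. Stationary-phase genes had no common direction, since 6 of 18 were lower and 4 higher, FMP48, a mitochondrial protein kinase, most of all (3.00-fold, adjusted p = 5.12e-05).

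**Figure D4:**
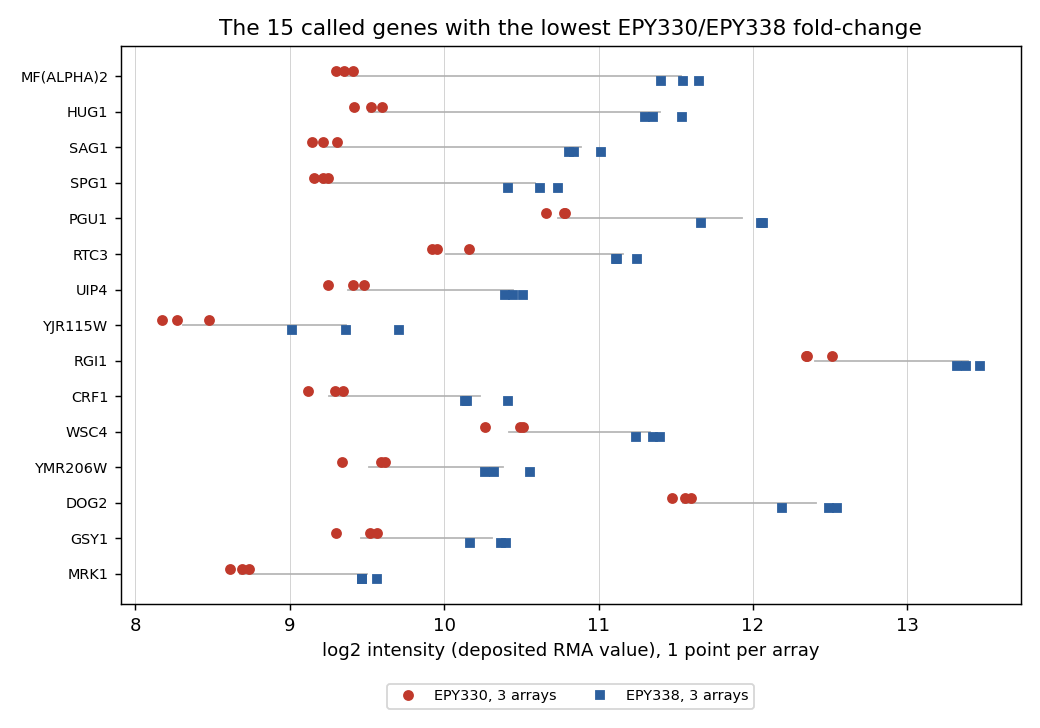
Log2 intensity of the 15 called genes with the lowest EPY330/EPY338 fold-change on each of the 3 EPY330 arrays (red circles) and 3 EPY338 arrays (blue squares), with a grey line joining the strain means. No gene overlaps between the strains, and the gap narrows to less than 1 log2 unit in mean from RGI1 downward.

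Ribosome biogenesis genes leaned to the higher side with small differences. Of 88 measured, 12 were higher (13.6%, against 4.48% of all genes) and none lower. A fold-change above 1 was found in 81, and the median log2 fold-change was 0.16, against -0.02 over all genes. At an unadjusted p under 0.05 limma gave 33 of the 88 as higher and 1 as lower, against 10.9% and 14.5% of all genes. DBP2, an RNA helicase, was highest at 1.52-fold (adjusted p = 0.00186), followed by ARX1, an export factor of the large subunit (1.46-fold, adjusted p = 0.00277), and the processome subunit UTP5 (1.43-fold, adjusted p = 0.00623). The count was 5 without EPY330 replicate 1, EPY330 replicate 2 or EPY338 replicate 2, 7 without EPY330 replicate 3, and 10 and 11 without EPY338 replicates 3 and 1, and 4 genes kept the call in every case. Ribosomal protein genes themselves were not called. Limma called 0 of 54 small-subunit and 0 of 73 large-subunit genes, with 1 and 3 at an unadjusted p under 0.05, and the methods' t-test called 0 in both. Among 69 mitochondrial ribosomal protein genes limma called 0, with 8 lower at an unadjusted p under 0.05, and the methods' t-test called 0. Of all genes, 14.5% passed that unadjusted limit in the lower direction and 10.9% in the higher. Histones (0 of 11, 1 lower at an unadjusted p under 0.05) and meiotic genes (0 of 20, 2 lower at an unadjusted p under 0.05) were without a call by limma, and by the methods' t-test too. With the replicate block 1 large-subunit gene was called higher, and 1 mitochondrial ribosomal protein gene and 1 histone gene were called lower.

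Regulators and enzymes outside the lists made up much of the rest of the 51 genes above 2-fold, and they were picked out after their values were seen unless named before. VHR1, the activator of biotin transport genes, read 11.57, 11.51 and 11.47 on the EPY330 arrays and 9.39, 9.53 and 9.25 on the EPY338 arrays, a 4.36-fold difference (adjusted p = 1.76e-06). ICY1, a gene of unknown function, read 11.28, 11.45 and 11.39 in EPY330 and 9.31, 9.41 and 9.44 in EPY338 (3.96-fold, adjusted p = 1.27e-06). YPL088W, a putative aryl-alcohol dehydrogenase, read 13.07, 13.00 and 12.90 in EPY330 and 11.13, 11.13 and 11.17 in EPY338 (3.61-fold, adjusted p = 1.27e-06), and YNL134C, an aldehyde reductase, 13.60, 13.51 and 13.54 in EPY330 and 12.50, 12.39 and 12.43 in EPY338 (2.16-fold, adjusted p = 1.74e-05). The arrays of the strains lay well apart in all 4 genes. SKS1, a kinase of adaptation to low glucose, was 2.67-fold (adjusted p = 9.83e-06), HSP31, a methylglyoxalase of the DJ-1 family, 2.62-fold (adjusted p = 0.000283), and OSI1, a gene of oxidative stress, 2.51-fold (adjusted p = 1.47e-05). COM2, a zinc-finger factor, was 2.30-fold (adjusted p = 3.88e-05), and YOR338W, of unknown function, 2.58-fold (adjusted p = 7.21e-06). SOK2, a repressor of filamentous growth, and RLM1, the factor of cell wall integrity, were 1.91-fold (adjusted p = 0.000373) and 1.65-fold (adjusted p = 0.00119).

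Genes that were not called included RPL37A of the large ribosomal subunit (1.07-fold, adjusted p = 0.491), the ribonuclease subunit RNH201 (0.964-fold, adjusted p = 0.775) and the phosphatase inhibitor YPI1 (0.908-fold, adjusted p = 0.260), and the arrays of the strains overlapped in RPL37A and RNH201. The study had picked RPL37A and RNH201 as reference genes because their mean fold-change over its arrays lay closest to 1. Their lack of a call is therefore not a separate result.

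The same RNA pools labeled by the other 2 methods gave the strain difference again with other chemistry. An interaction of strain and method, fitted with limma on all 18 arrays, tested whether the log2 fold-change differed between methods. Between indirect and direct random labeling 0 genes passed at 95% confidence, and 325 (5.66%) did at an unadjusted p under 0.05. Between indirect and ds-cDNA labeling, which both start from oligo(dT)-primed cDNA, 40 genes (0.697%) passed. Of these 40, 28 were called with indirect labeling, and in 29 the indirect fold-change was the larger in size. This test assumes the same spread with each method, and the spreads were not equal.

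CIS1 differed most, at 6.93-fold with indirect, 7.69-fold with direct random and 2.02-fold with ds-cDNA labeling, a difference of 1.78 ± 0.09 log2 units between indirect and ds-cDNA (SE, adjusted p = 1.86e-09). HXT8 went the other way, at 1.33-fold with indirect, 1.38-fold with direct random and 2.96-fold with ds-cDNA (-1.15 ± 0.09, adjusted p = 2.35e-06). With indirect labeling its EPY338 values lay near the lowest intensities of the arrays. Whether this made its indirect fold-change smaller was not tested. Among the lower genes, HUG1 was 0.271-fold with indirect, 0.335-fold with direct random and 0.640-fold with ds-cDNA (-1.24 ± 0.12, adjusted p = 2.35e-05). HXT3 was 7.34-fold, 5.87-fold and 3.17-fold in the same order of methods (1.21 ± 0.14, adjusted p = 0.000190). The direction of the strain difference was the same with all 3 methods in these 4 genes, and its size differed. PDR16 and PDR15 gave 6.56-fold and 5.29-fold with indirect, 7.07-fold and 5.29-fold with direct random, and 6.43-fold and 4.90-fold with ds-cDNA labeling, and neither passed the interaction test.

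**Figure D5:**
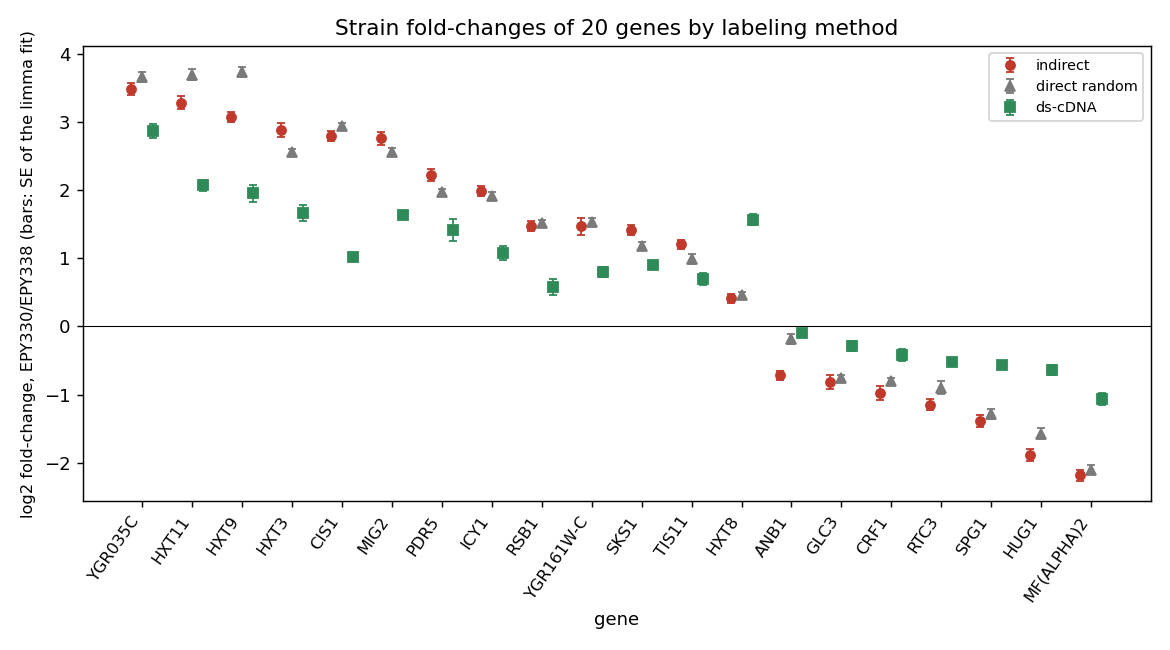
Log2 fold-change (EPY330/EPY338, mean of 3 arrays a strain, bars are the SE of the limma fit within a method) of the 20 named genes whose fold-change differed between indirect (red circles) and ds-cDNA (green squares) labeling, with direct random labeling as grey triangles. The ds-cDNA points lie nearer to 0 than the indirect points except in HXT8.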

How the data were processed

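Total RNA of EPY330 and EPY338 was labeled by the indirect method and hybridized to 6 one-color arrays, 3 a strain. The deposited values are log2 intensities, which the authors made by exporting feature intensities with NimbleScan and summarizing the probes to 1 value a gene by the RMA algorithm with quantile normalization in ArrayStar. Which arrays were normalized together and on which slide each lay are not given in the sources used here, so a slide could not enter a fit. Quantile normalization gives all arrays the same distribution, so a shift of all genes in 1 strain could not be seen. The table has no detection call, and values near the lowest intensity have no measured bound. All 18 columns of the table were used, the 12 of other methods only where they are named. Of 5861 entries, 122 without values were left out, and 5739 genes were tested with no other filter. Symbols came from the annotation of assembly R64 by systematic name (5733 matched). It served otherwise only to find neighbours, since the build of the probe design is not given in the sources used here.

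EPY330 minus EPY338 was tested with limma 3.58.1 in R 4.3.3 (lmFit and eBayes with default settings) and Benjamini-Hochberg adjustment over all genes. Confidence of 99%, 95% and 90% stands for adjusted p-values below 0.01, 0.05 and 0.1. The fit was tested on simulated data. Standard errors are those of the limma fit. The methods' t-test is Student's t-test, which the study names for the arrays, run here as a two-sided test of independent samples with equal variance on the same values, with the same adjustment. For 50 gene lists the members called and the median were counted, with no set test.

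Genes were named by rule: the 15 with the largest fold-change in each direction, genes that the study measured by another technology, up to 4 called members of a list in each direction (or all in lists with at most 5), and for each other labeling method the 5 with the largest difference past the interaction test. Other genes were named after their values were seen. The members and lists were chosen with earlier results of these data known.

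Arrays with the same number in both strains had correlated deviations from the strain means (0.123, 0.149 and 0.253 for replicates 1, 2 and 3), each over the limit of 0.1 set for pairs, so the fit was repeated with the number as a block. Of the pairs with different numbers, EPY330 replicate 2 and EPY338 replicate 1 also reached 0.205, and the other 5 were below 0. What the numbers stand for is not given in the sources used here, and the unblocked fit is reported, since the study names no block. Other alternatives were 2 forms of the methods' t-test, a trended or robust prior, 1 fit of all 18 arrays, median centring, quantile normalization of the 6 arrays, leaving out the dimmest 25% of genes, and leaving out each array. A planned search of promoters for motifs was not run, because no promoter sequence was used here. Plots were made in Python 3.11.15 with matplotlib 3.10.9.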

Additional observations from a re-analysis of the deposited data

Results flagged for a closer look

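In 20 of the named genes the strain fold-change differed between indirect and ds-cDNA labeling of the same RNA pools, by the interaction of strain and method in limma on all 18 arrays with an adjusted p under 0.05. The differences below are log2 fold-change with indirect minus log2 fold-change with ds-cDNA labeling.

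Among genes higher in EPY330, CIS1 differed by 1.78, HXT3 by 1.21, HXT11 by 1.21, MIG2 by 1.12 and HXT9 by 1.11. Smaller positive differences were found for ICY1 (0.91), RSB1 (0.90), PDR5 (0.80), YGR161W-C (0.67), YGR035C (0.61), SKS1 (0.51) and TIS11 (0.51). These 12 genes had the larger fold-change with indirect labeling. HXT8 was the 1 higher gene with the larger fold-change by ds-cDNA labeling (-1.15), and its indirect EPY338 values lay near the lowest intensities.

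Among genes lower in EPY330, HUG1 differed by -1.24, MF(ALPHA)2 by -1.12, SPG1 by -0.82, ANB1 by -0.62, RTC3 by -0.62, CRF1 by -0.56 and GLC3 by -0.52. In these 7 genes the decrease was the larger with indirect labeling. ANB1 was 0.609-fold with indirect, 0.879-fold with direct random and 0.940-fold with ds-cDNA labeling. The reasons for these differences were not tested.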

How the results depend on the processing

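Genes were called at 99%, 95% and 90% confidence in numbers of 195, 521 and 863 (257 higher and 264 lower at 95%). The methods' t-test gave 39, 158 and 389 on log2 intensities (97 higher, 61 lower) and 27, 147 and 367 on linear intensities (91 higher, 56 lower). One fit of all 18 arrays gave 461, 880 and 1197 (377 higher, 503 lower). With the replicate block the counts were 254, 700 and 1113, of which 508 genes at 95% were among the 521. The other alternatives kept these counts within 1.5 times. With 1 array left out the counts were 100 to 124, 274 to 460 and 469 to 898 (155 to 253 higher and 117 to 207 lower), lowest at 95% without EPY338 replicate 2 and highest without EPY338 replicate 3, and each such fit has fewer arrays. Of 167 named called genes, 45, 45 and 48 lost the call without EPY330 replicates 1, 2 and 3, and 35, 48 and 29 without EPY338 replicates 1, 2 and 3, while 109 kept it in every limma alternative that tested them and none changed sign; without the dimmest 25% of genes 17 of the 167 were not tested.

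The count of Pdr1/Pdr3 targets called higher was 16 to 20 over all alternatives. No gene differed between indirect and direct random labeling in the main interaction test, 4 did with a trended prior and 1 with the replicate block. Between indirect and ds-cDNA labeling 40 genes differed, 61 with a trended prior, 28 with the replicate block, and 24 to 44 with 1 indirect array left out. A few genes that were never called and lay near 0 changed sign. After quantile normalization of the 6 arrays the log2 fold-change was 0.0093 for SNG1, 0.0049 for HXT1, 0.015 for STE2 and 0.0055 for MFA1. With 1 array left out it ranged between -0.0385 and 0.0381 for ERG11, between -0.0534 and 0.0480 for SNG1, between -0.0512 and 0.0112 for HXT1, between -0.0872 and 0.0203 for FIT1 and between -0.116 and 0.0308 for RNH201.

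With the replicate block, no gene list of more than 5 called members in 1 direction had that count moved by more than 1.5 times. It ended the calls of SNZ3 (adjusted p = 0.0502) and CLB1 (0.0541), and of the genes named by rule it changed no other call than those given with a block value above. The sets of calls with small fold-changes rest on 3 arrays a strain, and genes near the lowest intensities cannot show a decrease. Quantile normalization of the 6 arrays ended the calls of 12 named genes (ADE4, GPX2, UTP6, MEP3, SAM1, CLB1, HXT5, THI5, DPP1, OPI3, COQ1 and SUT1), and median centring those of 4 (ATP5, GAL1, DPP1 and COQ1). The causes of these changes were not tested. The search for promoter motifs was not run.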

Other observations

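Called genes lay next to each other on the chromosome in 74 of 5716 neighbouring measured pairs, 33 with both genes higher in EPY330, 18 with both lower and 23 with opposite directions. In 1 of the 74 pairs the genes overlap. The following pairs were picked out after their values were seen. HXT11 (log2 3.28) lay beside IMA2 (1.12), which lay beside the siderophore transporter ENB1 (0.44). HXT9 (3.07) lay beside YJL218W, a putative acetyltransferase (0.72), and IMA5 (2.19) beside HXT8 (0.41). FIT2 (0.98), FIT3 (1.06) and the reductase FRE5 (0.45) formed a run of 3 neighbours. PDR5 (2.22) lay beside ATG40, a receptor of autophagy of the endoplasmic reticulum (1.02), and PDR3 (0.96) beside LDB7, a subunit of the RSC complex (0.69). RTS3 of protein phosphatase 2A (1.10) lay beside YGR161W-C (1.47), and PDR12 (1.19) beside SUR1 (0.79). Of the lower genes, MF(ALPHA)1 (-0.67) lay beside UIP4 (-1.07). ANB1 (-0.71) and CYC1 (0.73) were neighbours with opposite directions, as were PHO3 (-0.72) and PHO5 (0.53).

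Of 13 genes of flocculation and filamentation, with a median log2 fold-change of -0.05, 6 had a fold-change above 1 and 7 below. SOK2 and SFL1, both repressors, were called higher in EPY330 (1.91-fold and 1.43-fold). SOK2 kept its call with any 1 array left out, and SFL1 lost it without EPY330 replicate 1 or 3 or EPY338 replicate 1. TEC1, an activator of filamentation, was called lower (0.665-fold, adjusted p = 0.0280), a call lost without EPY330 replicate 1 or 2 or EPY338 replicate 2 or 3. The regulators MGA1, NRG1, PHD1 and FLO8 had fold-changes above 1 without a call, and NRG2 was not called. The flocculins FLO1, FLO5, FLO9, FLO10 and FLO11 were not called. The following genes were picked out after their values were seen. BSC1, a gene similar to the flocculins, read 11.64, 11.31 and 11.54 in EPY330, against 10.29, 10.26 and 10.19 in EPY338 (2.39-fold, adjusted p = 8.61e-05 by limma). Its neighbour PRM7, a pheromone-regulated membrane protein, read 12.74, 12.55 and 12.73 in EPY330, against 11.72, 11.73 and 11.72 in EPY338 (1.93-fold, adjusted p = 0.000110), and YDL038C, which is not in the annotation used here, was 2.21-fold (adjusted p = 0.000272). DNF2, a flippase of membrane phospholipids, was 1.86-fold higher (adjusted p = 0.000455).

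The mitochondrial gene COX2, picked out after its values were seen, read 12.91, 12.75 and 12.69 in EPY330, against 12.21, 12.23 and 11.91 in EPY338 (1.59-fold, adjusted p = 0.00632 by limma). Its neighbour SCEI was also called higher (log2 0.51). The list of purine and pyrimidine synthesis, which also holds genes of uptake, had 2 calls of 26. They were ADE4 (1.61-fold, adjusted p = 0.0347) and the purine-cytosine permease FCY2 (1.33-fold, adjusted p = 0.00498). FCY2 kept its call with any 1 array left out, and ADE4 lost its call without EPY330 replicate 1, 2 or 3 or EPY338 replicate 2 and after quantile normalization of the 6 arrays.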
